A study of Mus musculus with 12 samples.

Results

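The 86 genes described here encode the proteins of the cytosolic ribosome and their close paralogs. They were taken by symbol from the 18601 genes of a single-cell count matrix: every symbol of Rpl or Rps followed by a digit, with Rpsa, Rplp0, Rplp1 and Rplp2, and without the 16 symbols marked as pseudogenes by "-ps" and the 10 Rps6k kinase genes. By role they were 43 large subunit genes, 31 small subunit genes, 3 genes of the ribosomal stalk and 9 paralogs or non-canonical symbols (Rpl6l, Rpl7l1, Rpl10l, Rpl22l1, Rpl36al, Rpl39l, Rps27l, Rps27rt and Rps19bp1). The label did not hold for 2 of the 9: Rps19bp1 encodes a binding protein rather than a ribosomal one, and Rpl6l is annotated as a processed pseudogene.

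The libraries came from mice that had received Th1 cells, a CD4 T cell subset, either lacking a working interleukin-23 receptor (KO, Il23r eGFP/eGFP) or keeping 1 working copy (control, Il23r wt/eGFP), so that both genotypes carried an eGFP allele. The genotype and age of the recipients themselves are not given in the sources used here. CD4 T cells were profiled with a 10x Chromium 3′ kit, which counts unique molecular identifiers (UMIs) near the 3′ end of each transcript. Colon lamina propria (LP) and spleen had 2 libraries per genotype, 1 in batch 2 and 1 in batch 1, as the deposited cell table numbers them. Small intestine LP and colon epithelium had 1 library per genotype, in batch 2. The labels number the libraries without tying any of them to an animal, so p-values measure the spread between libraries, which may be technical.

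A ribosome is built from a large and a small subunit, each a core of ribosomal RNA dressed with many small proteins that are made in nearly equal numbers. The messages of these proteins are among the most abundant of a growing cell, and most begin with a run of pyrimidines at the 5′ end, the 5′ TOP tract, through which the mTOR kinase and the RNA-binding protein LARP1 adjust their translation as a group. T cells raise ribosome production when they leave the resting state and begin to divide.

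The annotated start regions of 9 members named in the results are printed. Rps21, Rpl38, Rps27 and Rps28 are named in the difference between batches and Rpl37a in that between colon and spleen. Rpl22, Rpl22l1, Rps27l and Rpl7l1 belong to paralog families described below. No fold change was set against these sequences. Each window holds 10 bases before and 20 bases from the annotated start of transcription, 5′ to 3′ on the transcribed strand, from RefSeq on GRCm38.p6. Capitals mark a tract that begins with C and runs over at least 6 letters that are each C or T, searched on the transcribed strand alone and beginning within 5 bases of the annotated start.
Rps21 (chr2:180257369-180257398, plus strand): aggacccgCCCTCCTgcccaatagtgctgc
Rpl38 (chr11:114668570-114668599, plus strand): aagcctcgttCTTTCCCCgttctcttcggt
Rps27 (chr3:90213629-90213658, minus strand): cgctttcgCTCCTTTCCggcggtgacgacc
Rps28 (chr17:33824543-33824572, minus strand): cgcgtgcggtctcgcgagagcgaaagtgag
Rpl37a (chr1:72711250-72711279, plus strand): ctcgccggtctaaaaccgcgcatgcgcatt
Rpl22 (chr4:152324426-152324455, plus strand): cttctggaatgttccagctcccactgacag
Rpl22l1 (chr3:28805498-28805527, plus strand): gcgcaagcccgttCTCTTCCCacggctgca
Rps27l (chr9:66946076-66946105, plus strand): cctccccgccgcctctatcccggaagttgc
Rpl7l1 (chr17:46782637-46782666, minus strand): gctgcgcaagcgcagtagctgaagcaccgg

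Rps21, Rpl38, Rps27 and Rpl22l1 held such a tract, of 7, 8, 9 and 8 letters, and the other 5 windows did not. Rps21, Rpl22 and Rps27l had 2 windows each, and a window with a tract was printed first. The annotated start of the Rpl22 window printed is 152324436, upstream of the gene's GENCODE start at 152325742. For Rpl37a it is 72711260, also upstream of the GENCODE start at 72711290. A gene counted as holding a tract if any of its windows did. Of the 65 members matched to a RefSeq window, 27 (41.5%) held one. The share was 12.99% of 13008 genes of the matrix. Counted by window and not by gene, it was 10.2% of all 32851 windows. Among mitochondrial ribosomal protein genes 4 of 68 (5.88%) held one, and among other messages known to carry TOP tracts 5 of 14 (35.7%). A missing match says only that these letters are not in this window.

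All values below were taken from CD3-positive cells, those with at least 3 UMIs over Cd3d, Cd3e and Cd3g, the genes of the CD3 complex that marks T cells. These were 29623 of 32763 cells (90.4%), with 764 to 3661 cells and 1902990 to 13248318 UMIs per library, and the small intestine KO library stood apart with 50.6% of its cells CD3-positive. Median depth was 2273 to 3033 UMIs per cell in batch 2 and 3938 to 5690 in batch 1, so batch and depth cannot be told apart. Batch also went with a mark of sex: Xist, expressed from the inactive X chromosome, reached at most 0.321 CPM (UMI counts scaled to a common library total) in batch 2 and 564 to 1190 CPM in batch 1, and the Y-linked gene Eif2s3y 46.2 to 115 CPM in batch 2 and 0 in batch 1. Cell barcodes were shared between libraries for 677 of 32077 distinct barcodes. The 7 T cell markers of the matrix, among them Cd3d, Cd3e and Cd3g, summed to 5037 to 7811 CPM in every library. Macrophage markers summed to at most 149.6 CPM, and B cell, plasma cell, dendritic, neutrophil, mast cell, CD8 T, stromal and NK or innate lymphoid markers to at most 63.1 CPM each. Epithelial markers summed to 1110 CPM in colon epithelium KO and at most 310 CPM in the other libraries, and haemoglobin and related erythroid markers to 1509 CPM in colon LP control of batch 1 and at most 217 CPM elsewhere.

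Ribosomal protein genes took 24968355 of 104578215 UMIs, a share of 23.9%. In batch 2 the share was 21.4% in colon LP KO and 24.2% in colon LP control, and 20.5% in spleen KO and 25.8% in spleen control. In batch 1 it was 27.7% in colon LP KO and 28.1% in colon LP control, and 24.8% in spleen KO and 26.7% in spleen control. Small intestine LP gave 24.95% in KO and 24.4% in control, and colon epithelium 20.3% in KO and 20.9% in control. The highest shares were those of the colon LP libraries of batch 1 and the lowest those of colon epithelium and spleen KO of batch 2. Exact binomial 95% intervals were narrow, at widest 24.89% to 25.01% for small intestine KO, and cover counting error only. Single cells spread further: the interquartile range of the share ran at widest from 21.2% to 32.2%, in spleen control of batch 1. It ran from 20.2% to 28.05% in small intestine KO and, at narrowest, from 18.5% to 23.3% in colon epithelium control.

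**Figure D1:**
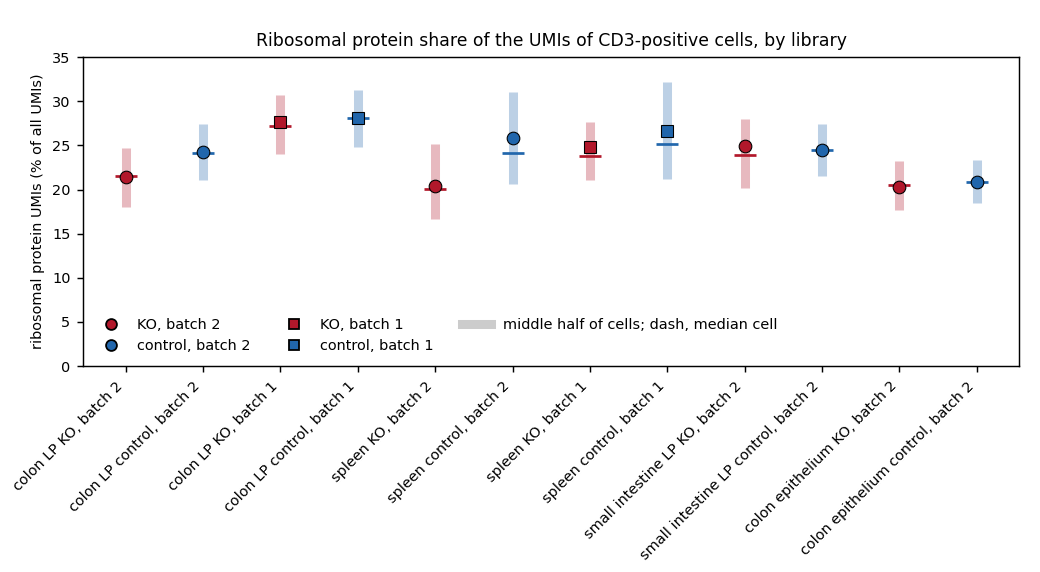
Share of UMIs from ribosomal protein genes (y axis, %) in CD3-positive cells of each library. Large points are library totals (circles batch 2, squares batch 1, red KO, blue control), bars the interquartile range of single cells and dashes the median cell; KO lies below control in 5 of 6 matched pairs, and batch 1 lies above batch 2 in each tissue and genotype measured in both.

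Set by batch, the share averaged 23.0% ± 2.46 in batch 2 and 26.8% ± 1.47 in batch 1 (SD, n = 4 colon LP and spleen libraries each), with ranges that overlapped (20.5% to 25.8% against 24.8% to 28.1%). By tissue it averaged 25.4% ± 3.15 in colon LP and 24.4% ± 2.76 in spleen (SD, n = 4 each). That difference lay within the spread between libraries, which takes in both batches and genotypes. Matched by batch and genotype, colon LP lay above spleen except in control of batch 2. By genotype it averaged 23.3% ± 2.997 in KO and 25.03% ± 2.499 in control (SD, n = 6 each). The KO share minus the control share was -2.78 and -0.450 percentage points in the colon LP pairs of batch 2 and batch 1, -5.34 and -1.85 points in the spleen pairs, -0.586 points in colon epithelium and 0.505 points in small intestine LP. KO therefore lay lower in 5 of 6 pairs by library totals. By the median cell it lay lower in small intestine LP as well, at 23.9% in KO and 24.4% in control, and so in all 6. Colon epithelium averaged 20.6% ± 0.414 and small intestine LP 24.7% ± 0.357 (SD, n = 2 each), beside 22.8% ± 1.97 in the 2 colon LP libraries of the same batch.

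**Figure D2:**
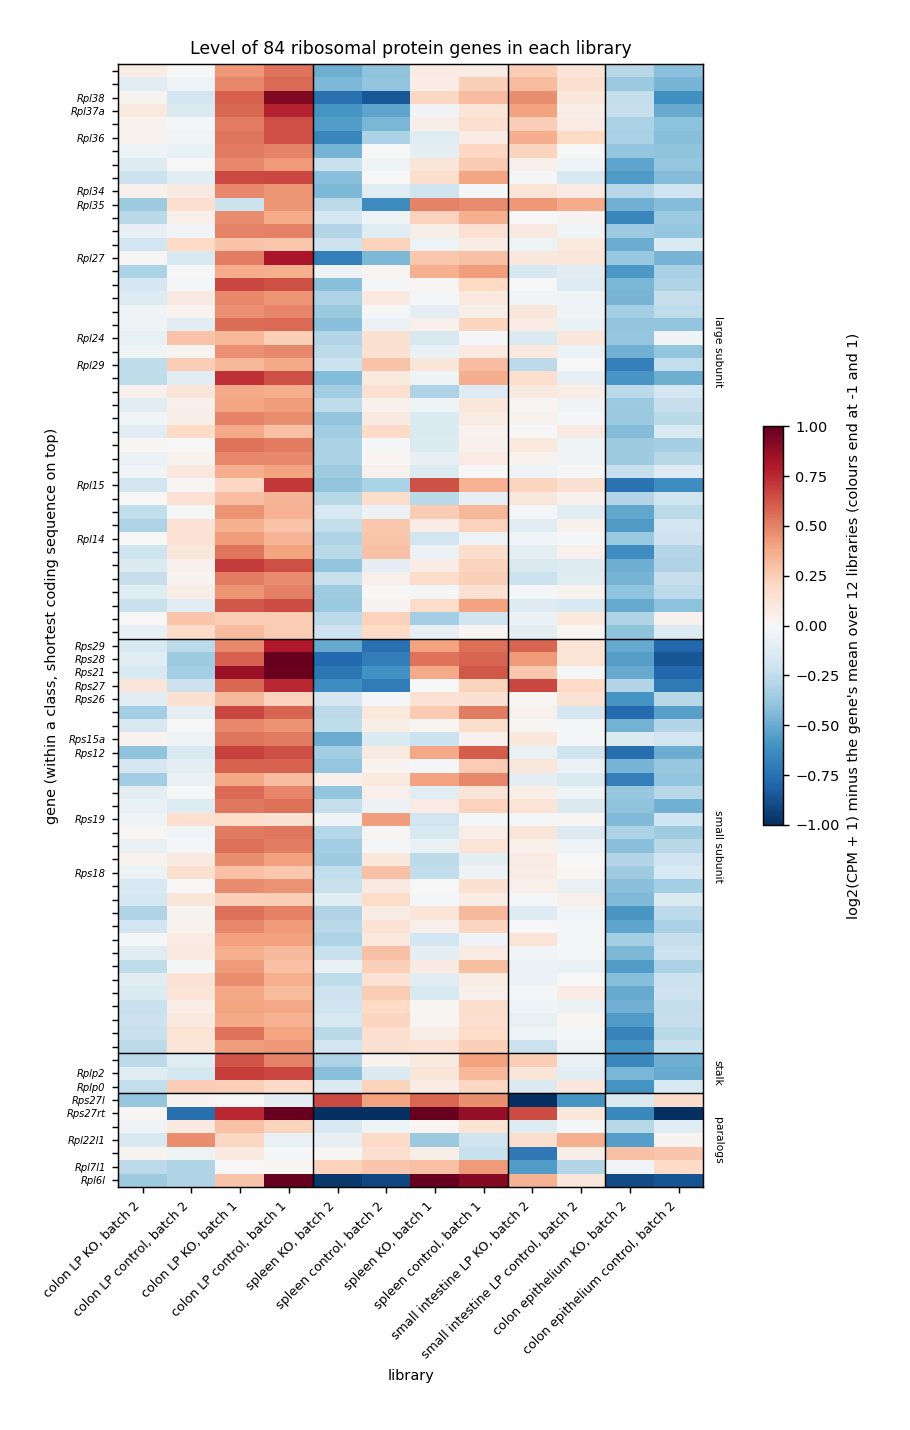
Level of 84 ribosomal protein genes with a mean of at least 20 CPM (rows) in each library (columns; a subset of genes is labelled), as log2(CPM + 1) minus the gene's mean over the 12 libraries. Most rows are red in both colon LP libraries of batch 1 and blue in colon epithelium. Rps27l, Rpl22l1, Rpl7l1 and Rps19bp1 in the paralog class depart from that pattern.

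For single genes, levels are CPM after TMM scaling, a step that sets each library by the bulk of its genes, and are not scaled by gene length. Of the 86 members 85 could be tested. Rpl10l, an intronless copy of Rpl10 known from the testis, had 4 UMIs in all, and Rpl39l, a copy of Rpl39, averaged 3.99 CPM. The other 84 averaged 34.5 CPM (Rps19bp1) to 7872 CPM (Rpl13a).

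Colon LP was compared with spleen to ask how the genes differed between a gut tissue and a lymphoid organ. Most members leaned higher in colon LP, and the 2 that passed the test, both paralogs, lay lower. Rps27l, a p53-responsive copy of Rps27, measured 181 and 237 CPM in colon LP KO (batch 2, then batch 1) and 241 and 221 CPM in colon LP control, against 374 and 353 CPM in spleen KO and 312 and 326 CPM in spleen control. All 4 colon LP libraries lay below all 4 spleen libraries. It averaged 220 ± 27.6 CPM in colon LP and 341 ± 27.4 CPM in spleen (SD, n = 4 each; log2 fold change -0.63 ± 0.13, SE; edgeR quasi-likelihood test, adjusted p = 0.00978). Rpl7l1, an Rpl7-like protein found in human pre-ribosomes, measured 43.7 and 52.8 CPM in colon LP KO and 42.5 and 53.0 CPM in colon LP control, against 61.9 and 64.6 CPM in spleen KO and 63.8 and 70.8 CPM in spleen control. Its groups did not overlap either, with 48.0 ± 5.70 CPM in colon LP and 65.3 ± 3.85 CPM in spleen (SD, n = 4 each; -0.44 ± 0.14; edgeR adjusted p = 0.0404). The Rpl7l1 call ended in 13 of 22 alternative settings, and over all 22 the adjusted p ran from 0.00744 to 0.236.

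By edgeR, without pairing the libraries by batch, 0 of 85 members were higher and 2 lower in colon LP. That share was far below the 29.9% of all genes called in this comparison (15.5% higher and 14.5% lower). With libraries paired by batch, as described below, the share of members called higher lay nearer to that of all genes. DESeq2 called 6 higher and 1 lower, beside 16.4% and 12.5% of all genes. Limma called 0 higher and 2 lower, beside 15% and 14.7% of all genes. At an unadjusted p under 0.05 edgeR had 5 higher and 2 lower, with the share of all genes at that cut not reported here. In cells with at most 1 UMI of the markers of other cell types the count was 0 higher and 2 lower, with a median of 0.25. The members' median log2 fold change was 0.25, against -0.05 for all genes tested, and 78 of 85 lay on the higher side. Scaled to library totals alone, which moved the median of all genes to -0.25, the members' median was 0.03 and 48 of 85 lay on the higher side, so the members stood about as far above the median of all genes under either scaling. Matched within genotype and batch, the median difference was 0.20 in KO and -0.02 in control in batch 2, and 0.45 in KO and 0.29 in control in batch 1. It was 0.10 without colon LP KO of batch 1 and 0.13 without colon LP control of batch 1. Scaled to the ribosomal protein total it was -0.02, with 0 higher and the same 2 lower, beside 19.4% of all genes (7.69% higher and 11.7% lower). That scaling divides each library by the members' summed UMIs, so it holds the members' median near 0 by construction. It therefore cannot test a shift of the whole family. For the fits that follow, with a library left out, the share of all genes called is not reported here. The count of members called was 4 without colon LP control of batch 2, and 1 without colon LP KO of batch 1 or without any single spleen library.

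The replicate numbers of the labels paired the libraries by batch, and with that number as a block 14 members were higher and 2 lower, beside 40.1% of all genes (19.7% higher and 20.4% lower). The 14 were Rpl36, Rpl37a, Rpl38, Rps27, Rpl37, Rpl34, Rpl41, Rps15a, Rps21, Rpl27, Rpl39, Rps14, Rpl9 and Rpl7a, components of both subunits. Rpl37a, a zinc-binding protein of the large subunit, measured 5284 and 7383 CPM in colon LP KO (batch 2, then batch 1) and 4478 and 8438 CPM in colon LP control, against 3281 and 4819 CPM in spleen KO and 3436 and 5373 CPM in spleen control. Colon LP was above spleen within each batch, while colon LP of batch 2 overlapped spleen of batch 1. Its log2 fold change with the block was 0.59 ± 0.13 (SE; edgeR adjusted p = 0.00569, against 0.00569 to 0.361 over the alternatives). Rpl36 gave 0.55 ± 0.12 (edgeR adjusted p = 0.00564, against 0.00564 to 0.261) and Rpl38, required in mouse embryos for the translation of Hox messages, 0.62 ± 0.14 (edgeR adjusted p = 0.0066, against 0.0066 to 0.676). Over the 84 members with at least 20 CPM, 29 were higher in colon LP in all 4 matched pairs. Lower in all 4 were 3, Rps27l and Rpl7l1 among them. The share of all genes with 1 direction in all 4 pairs is not reported here.

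Among members without a call in the unblocked fit, the 3 nearest to the threshold with higher values in colon LP were Rpl34 (0.47 ± 0.17; edgeR adjusted p = 0.0684, against 0.0138 to 0.395 over the alternatives), Rpl36 (0.56 ± 0.23) and Rps15a (0.48 ± 0.20). Rpl34 measured 3190 and 4314 CPM in colon LP KO and 3296 and 4192 CPM in colon LP control, against 2266 and 2690 CPM in spleen KO and 2842 and 3073 CPM in spleen control, and its 2 groups of 4 did not overlap. Against the members' own median, Rpl38, Rps27rt, Rpl37a, Rps27 and Rpl36 stood 0.38, 0.36, 0.35, 0.35 and 0.32 above on the log2 scale. Rps27l, Rpl7l1 and Rpl28 stood at -0.87, -0.67 and -0.32.

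By role, the median was 0.30 over the 43 large subunit genes (41 on the higher side), 0.21 over the 31 small subunit genes (29 on the higher side), 0.16 over the stalk and 0.08 over 8 tested paralogs. The stalk proteins, which recruit elongation factors, gave 0.02 ± 0.16 for Rplp0, 0.16 ± 0.25 for Rplp1 and 0.33 ± 0.27 for Rplp2. Members with a known part outside the ribosome ran over the same span. Rpl5 and Rpl11, which bind MDM2 and so stabilise p53, gave 0.21 ± 0.26 and 0.24 ± 0.17. Rpl13a, a component of a complex that silences inflammatory messages in human monocytes, gave 0.33 ± 0.17, and Rps3, which also binds NF-kB subunits, 0.26 ± 0.17. Rps6, the substrate of S6 kinase, gave 0.20 ± 0.17, Rps19, the gene first tied to Diamond-Blackfan anaemia in humans, 0.07 ± 0.16, and Rpl3, a protein near the peptidyl transferase centre, 0.33 ± 0.16. Rpsa, also known as the laminin receptor, gave 0.11 ± 0.19 and Rps27a, made as a fusion with ubiquitin, 0.21 ± 0.19. The 4 X-linked members gave 0.12 ± 0.18 (Rps4x), 0.05 ± 0.21 (Rpl10), 0.33 ± 0.20 (Rpl36a) and 0.36 ± 0.24 (Rpl39). None of these passed the unblocked test.

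**Figure D3:**
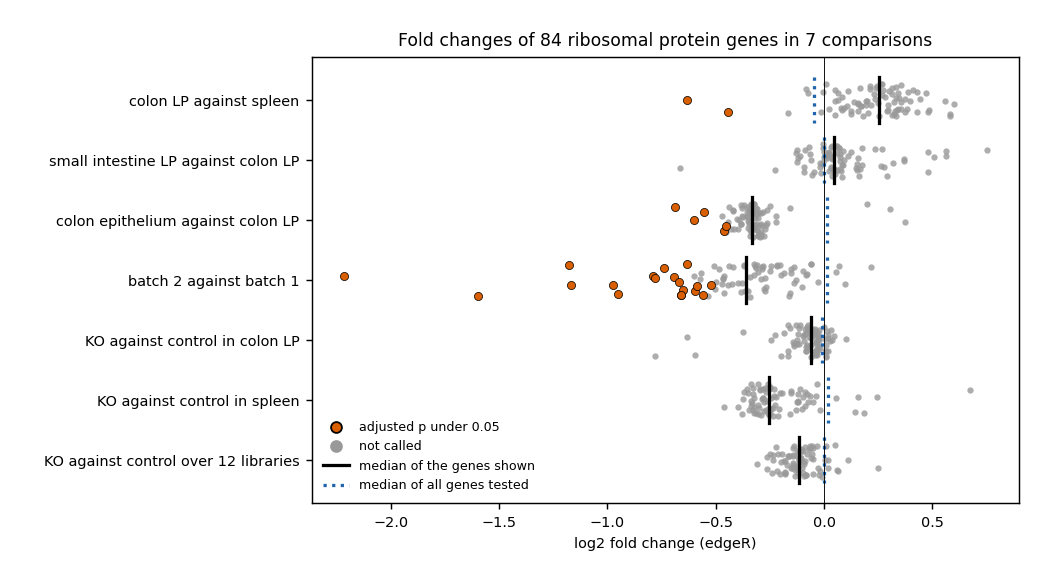
Log2 fold change (x axis) of the 84 ribosomal protein genes with at least 20 CPM in 7 comparisons (rows); each point is a gene, orange where edgeR's adjusted p was under 0.05. The black bar, the median of these genes, stands apart from the dotted median of all genes to the right in colon LP against spleen and to the left in batch 2 against batch 1, colon epithelium against colon LP and KO against control in spleen.

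Batch 2 was compared with batch 1 over the 8 colon LP and spleen libraries, with both genotypes and tissues in each batch. In batch 2, 0 members were higher and 19 of 85 lower, beside 3.26% of all genes called (1.32% higher and 1.94% lower). The median over the members was -0.35, against 0.01 for all genes, and 56 of 84 members lay lower in all 4 matched pairs. The share of all genes doing so is not reported here, so that count is not read as particular to the family. Rps21, of the small subunit, measured 1064 and 935 CPM in colon LP KO and control and 713 and 775 CPM in spleen KO and control of batch 2, against 2148 and 2348 CPM in colon LP KO and control and 1533 and 1812 CPM in spleen KO and control of batch 1. Every batch 2 library lay below every batch 1 library, with means of 872 ± 159 and 1961 ± 361 CPM (SD, n = 4 each; -1.17 ± 0.12; edgeR adjusted p = 0.00197). Rps28, which sits at the mRNA exit of the small subunit, measured 2277, 1925, 1435 and 1518 CPM in batch 2, against 3725, 5093, 3584 and 3678 CPM in batch 1, in the same order of libraries (-1.18 ± 0.15; edgeR adjusted p = 0.00445). Its batches did not overlap either. Scaled to library totals alone, which moved the median of all genes to 0.15, the members' median was -0.21. With that scaling 0 were higher and 15 lower, beside 3.2% and 1.62% of all genes. The members' median was 0.01, near 0 by construction, when each library was scaled to its own ribosomal protein total. With every cell thinned to 1500 UMIs the count was 0 higher and 20 lower, and in cells with at most 1 UMI of other cell types' markers 0 higher and 18 lower.

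Rps29 followed with -0.98 ± 0.14, Rpl38 with -0.95 ± 0.14, Rpl27 with -0.79 ± 0.13, Rps12 with -0.78 ± 0.13 and Rps27 with -0.74 ± 0.13 (SE; edgeR adjusted p = 0.00819, 0.00918, 0.0157, 0.016 and 0.0217). Rpl38 measured 2363 and 2034 CPM in colon LP KO and control and 1383 and 1285 CPM in spleen KO and control of batch 2, against 3500 and 4411 CPM in colon LP KO and control and 2673 and 2870 CPM in spleen KO and control of batch 1. The 2 batches did not overlap for Rpl38. The other members called were Rpl6l, Rplp2, Rpl30, Rpl39, Rpl37, Rpl15, Rpl37a, Rpl5, Rps20, Rps27rt, Rpl36 and Rpl7a. The lowest fold changes belonged to Rps27rt (-2.22 ± 0.38; edgeR adjusted p = 0.0381, against 7.57e-05 to 0.256 over the alternatives) and Rpl6l (-1.60 ± 0.25; edgeR adjusted p = 0.0213), near-identical copies of Rps27 and Rpl6 whose reads may be split between copies. The 16 pseudogene symbols left out of the family ran the same way, at 0.498% to 1.39% of the members' UMIs in batch 2 and 1.24% to 3.73% in batch 1.

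Among the remaining members named by rule, Rplp1 gave -0.57 ± 0.13, Rpsa -0.35 ± 0.13, Rps27a -0.34 ± 0.13, Rpl11 -0.29 ± 0.12, Rpl13a -0.22 ± 0.13, Rps3 -0.22 ± 0.14, Rplp0 -0.15 ± 0.13, Rps6 -0.14 ± 0.14 and Rps27l -0.06 ± 0.13, none past the test (Rplp1 with an edgeR adjusted p of 0.0512). Rpl39l lay on the other side at 1.13 ± 0.54, as did 4 further members. Rpl22l1 gave 0.22 ± 0.16, Rps19 0.09 ± 0.14 and Rpl3 0.07 ± 0.14, none past the test (edgeR adjusted p = 0.47, 0.732 and 0.807). Rps19 measured 5339 and 6140 CPM in colon LP KO and control and 5350 and 7302 CPM in spleen KO and control of batch 2, against 6222 and 6087 CPM in colon LP KO and control and 4807 and 5409 CPM in spleen KO and control of batch 1. The 2 batches overlapped for Rps19, and its direction turned (-0.02) without either spleen control library. The X-linked genes gave -0.28 ± 0.14 for Rps4x, -0.47 ± 0.12 for Rpl10, -0.42 ± 0.12 for Rpl36a and -0.59 ± 0.11 for Rpl39, of which Rpl39 passed (edgeR adjusted p = 0.0247). Each library was also scaled to its own ribosomal protein total, a setting chosen after the data were seen. Then 5 members were higher (Rps19, Rpl22l1, Rpl3, Rps19bp1 and Rps18) and 7 lower (Rps21, Rps28, Rpl6l, Rps29, Rpl38, Rps12 and Rps27rt). All genes had 25.5% called (23.9% higher and 1.62% lower). The share of members called higher was thus below that of all genes, and the share called lower above it. The family's total share of UMIs was described and not tested between batches. DESeq2 called 36 members lower, beside 3.53% of all genes, and limma 24, beside 2.5%. Both called 0 members higher, beside 2.17% and 1.39% of all genes. At an unadjusted p under 0.05 edgeR had 0 higher and 52 lower, with the share of all genes at that cut not reported here. Without colon LP control of batch 2 or of batch 1 the count was 4, without spleen KO of batch 2 it was 5, without spleen KO of batch 1 it was 6, and without either colon LP KO library it was 12.

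Of the 19 members lower in batch 2, 9 were among the shortest of the family. Coding lengths from the GENCODE M21 annotation ran from 75 bases (Rpl41) upwards, and 12 members had 300 or fewer: Rpl41, Rpl39, Rpl39l, Rps29, Rps28, Rpl38, Rps21, Rps27, Rps27l, Rps27rt, Rpl37a and Rpl37. Of these 12, 9 were lower in batch 2, with a median of -0.69 over the 12. Of the 23 members over 600 bases 3 were lower, with a median of -0.27 over the 23. Other genes with 300 or fewer coding bases had a median of 0.01 (246 genes). The correlation of fold change with coding length was 0.43 over 84 members (Spearman), and -0.04 over 10359 other genes, given as a description since genes of the same libraries are not independent. The 12 short members took 9.93% of the family's UMIs in spleen control of batch 2, the lowest library, and 19.2% in small intestine KO, the highest. In batch 2 their share was higher in KO than in control in every pair, at 16.2% and 13.2% in colon LP, 12.6% and 9.93% in spleen, 19.2% and 16.2% in small intestine LP and 15.9% and 12.3% in colon epithelium. In batch 1 it was 16.1% in KO and 18.8% in control in colon LP, and 17.6% in KO and 16.7% in control in spleen. In KO against control over 12 libraries the 12 short members had a median of 0.04 and those over 600 bases one of -0.16 (Spearman correlation with coding length -0.65 over 84 members of the same libraries).

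**Figure D4:**
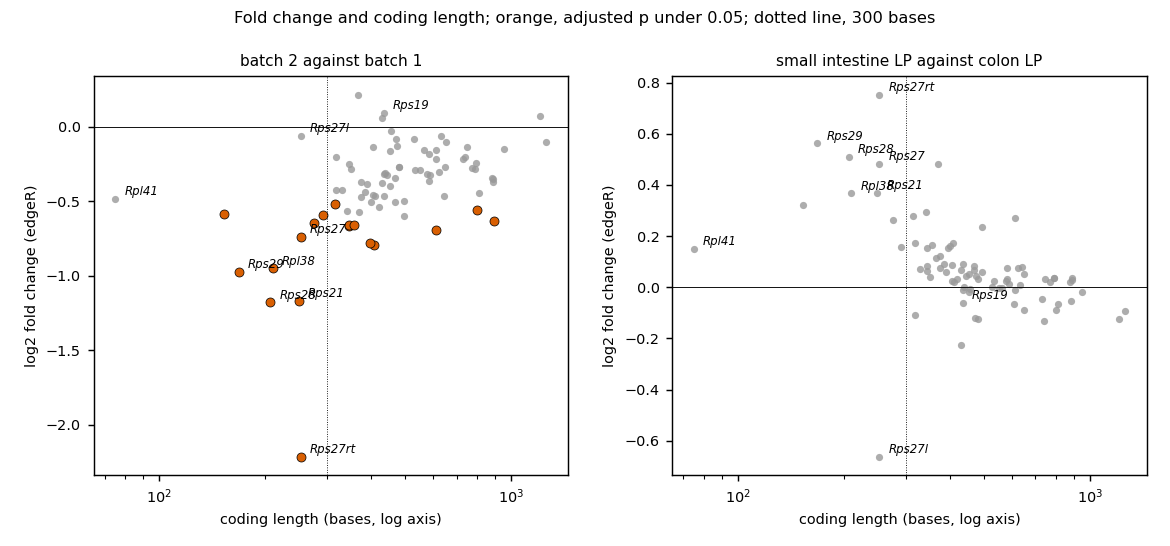
Log2 fold change (y axis) against coding length in bases (x axis, log scale) for ribosomal protein genes in batch 2 against batch 1 (left) and small intestine LP against colon LP (right); orange points have an adjusted p under 0.05. Most members left of the dotted line at 300 bases lie low in the batch comparison and high in the tissue comparison, and Rps27l departs from them in both.

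The loss of the interleukin-23 receptor was set against control in each tissue and over all 12 libraries. No member passed in any of these comparisons, and 0% of all genes were called in each by edgeR. In colon LP the members' median was -0.06 (16 of 85 on the higher side; all genes -0.01), and in spleen it was -0.26 (6 of 85 on the higher side; all genes 0.02). At an unadjusted p under 0.05 there were 0 members in colon LP and 1 in spleen, and DESeq2 and limma called 0 in both. With each library scaled to its own ribosomal protein total, the median was 0.01 in colon LP and -0.02 in spleen, near 0 by construction. Scaled to library totals alone it was -0.08 and -0.23. The effect in colon LP minus that in spleen had a median of 0.18, with 0 members called by edgeR, DESeq2 or limma and 1 at an unadjusted p under 0.05. The medians depended on single libraries. In colon LP the median ran from -0.37 without KO of batch 1 to 0.18 without KO of batch 2, and was -0.24 without control of batch 2 and 0.17 without control of batch 1. In spleen it was -0.39 without KO of batch 1 and -0.12 without KO of batch 2. The difference between tissues ran from -0.16 without colon LP KO of batch 1 to 0.44 without colon LP KO of batch 2.

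Pair by pair, KO minus control had a median over members of -0.14 and 0.02 in colon LP (batch 2, then batch 1), -0.34 and -0.16 in spleen, 0.05 in small intestine LP and -0.14 in colon epithelium. Of the 84 members with at least 20 CPM, 5 were lower in KO in all 6 pairs, Rpl13a, Rpl29, Rpl6 and Rpsa among them. No member was higher in all 6, and the share of all genes with 1 direction throughout is not reported here. Over 12 libraries the median was -0.12 (10 of 85 on the higher side, all genes 0.00), with 0 members called by edgeR, DESeq2 or limma. At an unadjusted p under 0.05 edgeR had 5 of 85, on the lower side: Rpl29, Rplp0, Rpl24, Rpl3 and Rpl32. A cut of 0.05 passes about that many when nothing differs, so the count is not a result about the members. Rpl29, a large subunit protein, measured 1492 and 2249 CPM in colon LP KO (batch 2, then batch 1), 1533 and 1944 CPM in spleen KO, 1490 CPM in small intestine KO and 1109 CPM in colon epithelium KO. In control it measured 2117 and 2320 CPM in colon LP, 2169 and 2206 CPM in spleen, 1777 CPM in small intestine LP and 1501 CPM in colon epithelium. KO and control overlapped, and the fold change was -0.31 ± 0.11 (SE; edgeR adjusted p = 0.99984). Rplp0 gave -0.26 ± 0.10 and Rpl24 -0.24 ± 0.10, both with an edgeR adjusted p above 0.999. Rps27 pointed the other way (0.11 ± 0.22; edgeR adjusted p = 0.99984).

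The widest KO value belonged to a gene with few UMIs. Rpl39l gave 1.98 ± 0.86 in colon LP and -2.21 ± 0.92 in spleen (edgeR adjusted p = 1 in both), on levels of 13.6 and 2.66 CPM in colon LP KO and 3.11 and 0.673 CPM in colon LP control, and of 1.34 and 0.763 CPM in spleen KO and 4.25 and 6.24 CPM in spleen control (batch 2, then batch 1). Without the filter on low counts Rpl39l passed in both tissues and in their difference. Rpl35, of the large subunit, gave -0.59 ± 0.38 in colon LP (edgeR adjusted p = 1), with 1409 and 1560 CPM in KO and 2019 and 2460 CPM in control. The small subunit gene Rps18 gave -0.37 ± 0.23 and Rpl14 -0.37 ± 0.23 in spleen, neither past the test. On the higher side the smallest p-values after Rpl39l were those of Rps19bp1 (0.10 ± 0.20) and Rps15a (0.05 ± 0.28) in colon LP, and those of Rps27l (0.19 ± 0.19), Rps27rt (0.68 ± 1.38) and Rpl15 (0.16 ± 0.40) in spleen. For the difference between tissues they included Rpl39l (4.19 ± 1.26) and Rpl14 (0.35 ± 0.33) on the higher side and Rpl35 (-0.74 ± 0.54), Rps27l (-0.33 ± 0.26) and Rpl15 (-0.53 ± 0.57) on the lower side, all with an edgeR adjusted p above 0.999.

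Small intestine LP and colon epithelium had no second library per genotype, so KO against control there has no replicate check. These ratios were taken on CPM of library totals without TMM scaling, so they differ from the TMM-scaled pair values above (medians 0.05 in small intestine LP and -0.14 in colon epithelium). In small intestine LP the median log2 ratio over the 83 members with at least 50 UMIs in each library was -0.00046, and 0 of 83 passed 1.5-fold, beside 10.3% of 4118 genes. The widest ratios were 0.50 for Rps27rt, 0.42 for Rps27 and 0.40 for Rps29 on the higher side, and -0.56 for Rps27l, -0.32 for Rpl7l1 and -0.30 for Rpl24 on the lower side. In colon epithelium the median over 84 members was -0.07, and 1 of 84 passed 1.5-fold (Rps27rt, 0.89), beside 6.98% of 8214 genes. The widest after it were 0.48 for Rps27 and 0.45 for Rpl38 on the higher side, and -0.51 for Rpl22l1, -0.37 for Rplp0 and -0.37 for Rpl29 on the lower side. The genes named on the higher side in both tissues have 300 or fewer coding bases, as does Rps27l on the lower side. Over all deposited cells in place of CD3-positive cells the small intestine median was -0.17, and the KO library there held 50.6% CD3-positive cells against 92.0% in control.

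Colon epithelium set against colon LP of the same batch asked whether T cells among epithelial cells differed from those beneath them. Both genotypes showed a lower family in the epithelium. Of 85 members 82 lay on the lower side, with a median of -0.34 (all genes 0.01) that was -0.33 in the KO pair and -0.33 in the control pair. By edgeR 0 were higher and 5 lower, beside 12% of all genes called (4.58% higher and 7.44% lower). The lower count thus lay near the share of all genes and is not read as a result about the members. The 5 were Rps27rt (-0.69 ± 0.13), Rpl15 (-0.60 ± 0.12), Rpl6l (-0.56 ± 0.13), Rpl29 (-0.46 ± 0.13) and Rps26 (-0.45 ± 0.12), with edgeR adjusted p of 0.0129, 0.0174, 0.0269, 0.0458 and 0.0436. Rpl15, of the large subunit, measured 669 CPM in epithelium KO and 726 CPM in epithelium control, against 987 CPM in colon LP KO and 1126 CPM in colon LP control. Rps26, near the mRNA exit of the small subunit, measured 979 CPM in epithelium KO and 1211 CPM in epithelium control, against 1357 CPM in colon LP KO and 1638 CPM in colon LP control. Both epithelial libraries lay below both colon LP libraries for each gene. On the higher side lay Rpl7l1 (0.38 ± 0.13; edgeR adjusted p = 0.0971), Rps19bp1 (0.30 ± 0.19) and Rps27l (0.20 ± 0.18), of which Rpl7l1 had an unadjusted p under 0.05.

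How many members passed there depended on the libraries fitted for the spread. The count was 0 without either epithelial or either colon LP library, 3 without either small intestine library, and 50 and 52 without spleen KO or spleen control. DESeq2 called 0 higher and 18 lower, beside 3.71% and 7.46% of all genes. Limma called 0 higher and 8 lower, beside 5.83% and 8.85%, so its lower count lay near the share of all genes. The fit of thinned cells called 1 higher and 18 lower. Scaled to library totals alone, which moved the median of all genes to 0.20, the members' median was -0.15. There 1 member was higher (Rpl7l1) and 1 lower, beside 10.5% and 5.4% of all genes. Scaled to the ribosomal protein total, the median was -0.0022, near 0 by construction. With that scaling 1 member was higher (Rpl7l1) and 0 lower, beside 17.6% of all genes. The epithelial marker sum was 1110 CPM in epithelium KO and 30.9 CPM in epithelium control, against 9.89 CPM in colon LP KO and 112 CPM in colon LP control. What part epithelial transcripts had in the lower values was not tested. In cells with at most 1 UMI of other cell types' markers 0 members were higher and 6 lower, with a median of -0.32.

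Small intestine LP against colon LP gave no call. By edgeR 0 of 85 members passed, beside 0.0089% of all genes. DESeq2 called 3 higher (Rpl6l, Rps27rt and Rps29), beside 0.409% of all genes, and limma called 0, beside 0.0089%. At an unadjusted p under 0.05 edgeR had 9 higher and 1 lower, with the share of all genes at that cut not reported here. Without spleen KO or spleen control of batch 2, whose libraries enter the estimate of spread, edgeR called 3. The share of all genes called in those fits is not reported here. The members' median was 0.04, and -0.04 scaled to the ribosomal protein total, which holds it near 0 by construction. The median was 0.15 in the KO pair and -0.06 in the control pair. It was -0.08 without small intestine KO and 0.18 without small intestine control. The smallest p-values belonged to Rps27rt (0.75 ± 0.13; edgeR adjusted p = 0.167), Rpl6l (0.56 ± 0.13; 0.239) and Rps29 (0.56 ± 0.13; 0.244) on the higher side and Rps27l (-0.66 ± 0.19; 0.362), Rps19bp1 (-0.23 ± 0.20; 0.765) and Rpl29 (-0.13 ± 0.13; 0.783) on the lower side. Over the alternatives the adjusted p of these ran from 0.000207 to 0.729 for Rps27rt, 0.0101 to 0.995 for Rpl6l, 0.00431 to 0.995 for Rps29 and 0.0388 to 0.995 for Rps27l. Members with 300 or fewer coding bases had a median of 0.34, against 0.01 for those over 600.

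**Figure D5:**
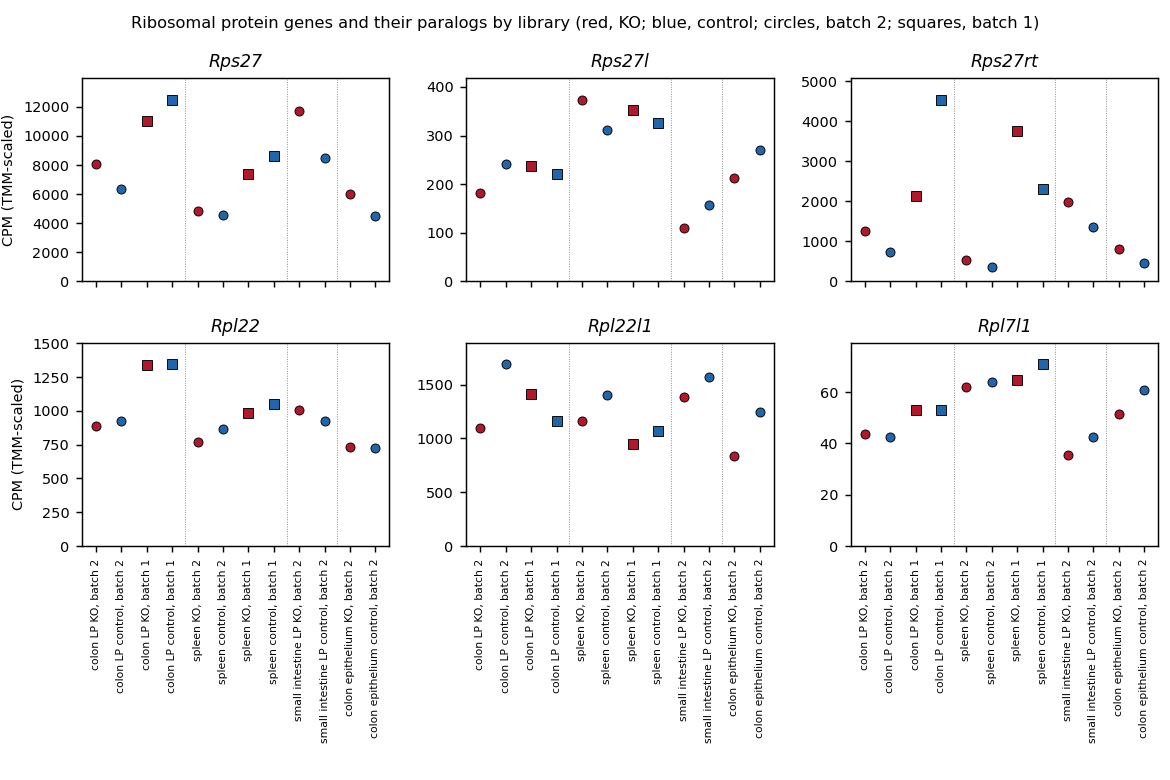
TMM-scaled CPM (y axes, from 0) of Rps27, Rpl22 and 4 paralogs in each library (red KO, blue control, circles batch 2, squares batch 1; dotted lines part the tissues). Rps27 is higher in colon LP of batch 1 and in small intestine KO, where Rps27l is lowest, and Rpl22l1 is lower in KO than in control in each batch 2 pair.

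The Rps27 family, 3 genes for 1 position of the small subunit, was uneven. Rps27 measured 8036 and 11020 CPM in colon LP KO (batch 2, then batch 1) and 6366 and 12480 CPM in colon LP control, against 4808 and 7356 CPM in spleen KO and 4566 and 8641 CPM in spleen control. Small intestine LP had 11743 CPM in KO and 8470 CPM in control, and colon epithelium 6034 CPM in KO and 4532 CPM in control. Rps27l had 109 CPM in small intestine KO, its lowest value, with 156 CPM in control, and 213 CPM in epithelium KO and 271 CPM in epithelium control. Rps27l was therefore highest in spleen and lowest in small intestine LP, while Rps27 had its lowest values in spleen and epithelium of batch 2. Rps27rt spanned 373 CPM in spleen control of batch 2 to 4542 CPM in colon LP control of batch 1.

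Rpl22 and Rpl22l1 encode alternative proteins of the large subunit, and in mice Rpl22 is needed for alpha beta T cell development and represses Rpl22l1. Rpl22 measured 892 and 1338 CPM in colon LP KO (batch 2, then batch 1) and 927 and 1345 CPM in colon LP control, against 772 and 983 CPM in spleen KO and 869 and 1053 CPM in spleen control. Rpl22l1 measured 1100 and 1412 CPM in colon LP KO and 1690 and 1165 CPM in colon LP control, against 1160 and 948 CPM in spleen KO and 1402 and 1068 CPM in spleen control. Colon LP minus spleen gave 0.29 ± 0.20 for Rpl22 and 0.23 ± 0.19 for Rpl22l1, and batch 2 minus batch 1 gave -0.44 ± 0.12 for Rpl22 and 0.22 ± 0.16 for Rpl22l1, none past the test. KO minus control for Rpl22l1 was -0.62 and 0.28 in colon LP (batch 2, then batch 1), -0.27 and -0.17 in spleen, -0.18 in small intestine LP and -0.58 in colon epithelium, so lower in 5 of 6 pairs. Rpl36al, the autosomal copy of the X-linked Rpl36a, gave 0.16 ± 0.14 in colon LP against spleen and -0.20 ± 0.11 in batch 2 against batch 1, beside 0.33 ± 0.20 and -0.42 ± 0.12 for Rpl36a.

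Genes that work beside the family were described by list. Of 76 tested mitochondrial ribosomal protein genes, which serve a separate ribosome, 0 were higher and 12 lower in colon LP than in spleen, with a median of -0.14. All genes had 15.5% higher and 14.5% lower in this comparison, so the lower count lay near the share of all genes. Mrpl34 led with -0.997 ± 0.196 (edgeR adjusted p = 0.00767). Of 21 other TOP messages 1 was higher, the poly(A)-binding protein gene Pabpc1 (0.59 ± 0.14; edgeR adjusted p = 0.015), and 21 of 21 lay on the higher side (median 0.18). Of 29 ribosome biogenesis genes 2 were higher and 11 lower in colon LP (median -0.32), among them Nop2, a ribosomal RNA methyltransferase (-1.06 ± 0.18; edgeR adjusted p = 0.00436), Dkc1, the pseudouridine synthase dyskerin (-1.003 ± 0.171; 0.00422), and Srm, spermidine synthase (-1.07 ± 0.23; 0.00998). Of 17 regulators of ribosomal protein synthesis 6 were higher and 1 lower. Sesn3 and Sesn1, inhibitors of mTORC1, gave 1.66 ± 0.15 and 1.47 ± 0.27 (edgeR adjusted p = 0.000277 and 0.00533), and Ddit4, another inhibitor, -1.27 ± 0.14 (0.000646). Sesn3 measured 142 and 159 CPM in colon LP KO (batch 2, then batch 1) and 123 and 152 CPM in colon LP control, against 53.0 and 41.8 CPM in spleen KO and 48.6 and 38.8 CPM in spleen control, with no overlap.

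In batch 2 against batch 1 the other TOP messages had 0 higher and 2 lower of 21, Tpt1, a growth-related protein (-0.63 ± 0.13; edgeR adjusted p = 0.0371), and Eef1a1, the elongation factor that brings transfer RNA (-0.57 ± 0.12; edgeR adjusted p = 0.0399), with a median of -0.19. Mitochondrial ribosomal genes had 0 higher and 1 lower (Mrpl9) with a median of 0.14, biogenesis genes 0 and 0 with 0.04, and regulators 1 higher (Akt1, 2.14 ± 0.12; edgeR adjusted p = 4.29e-05) with -0.06, beside 1.32% of all genes higher and 1.94% lower. In colon epithelium against colon LP the other TOP messages had a median of -0.25. Among biogenesis genes 1 was higher and 3 lower there: Ltv1, Ncl (nucleolin) and Gnl3 (nucleostemin), at -0.90 ± 0.16, -0.63 ± 0.13 and -0.88 ± 0.21 (edgeR adjusted p = 0.0108, 0.0188 and 0.0327), beside 4.58% of all genes higher and 7.44% lower in this comparison. Among regulators 1 was higher (Ddit4, 0.82 ± 0.17) and 3 lower, Tsc1 (-1.07 ± 0.18) and Sesn3 (-0.58 ± 0.13) among them (edgeR adjusted p = 0.0164, 0.00799 and 0.0215). No gene of the 4 lists passed in KO against control in colon LP, in spleen, in their difference or over 12 libraries.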

How the data were processed

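The deposited values were UMI counts, which per the labels the authors made from 10x Chromium 3′ libraries; Cell Ranger 2.0.2 and mm10 are credited to the submitters' processing notes. The authors' filter on cells is unknown here, and doublets were not called. Counts were summed per library over CD3-positive cells and tested with edgeR 4.0.16 (robust quasi-likelihood test, filterByExpr, Benjamini-Hochberg adjustment over all genes tested, threshold 0.05). TMM factors (0.844 to 1.13) were computed over 12 libraries. Colon LP and spleen libraries were fitted together, the genotype over 12 libraries with tissue as a further term, and small intestine LP and colon epithelium with the other batch 2 libraries. DESeq2 1.42.0 and limma 3.58.1 were alternatives. The statistics were tested on simulated counts. Summing cells cannot tell fewer expressing cells from less RNA per cell.

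The members, gene lists, and rule for named genes were chosen with earlier results of these data known. The rule takes 22 genes always, up to 8 members per direction past the threshold by p (otherwise the 3 smallest p), 5 members each side of the members' median in colon LP minus spleen, the 3 largest ratios each way without replicates, and up to 3 genes per other list; some results under this rule are not reported here. Values over pairs take members with at least 20 CPM, as log2(CPM + 1).

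Same-numbered libraries deviated together (correlations of deviations from group means 0.237 to 0.495 over 6 pairs of groups and 10976 genes), and batch and replicate number coincided in each of 32763 cells, so the numbers were taken to pair libraries. Alternatives changed the cells (all cells, CD3 limits of 1 and 5 UMIs, at most 1 UMI of 48 markers of other cell types, at most 10% mitochondrial UMIs, cells thinned to 1500 UMIs), the scaling, the filter, the test, the block and the libraries. The scaling to the ribosomal protein total and the fits without the small intestine pair or on batch 2 alone were chosen after seeing the data.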

Additional observations from a re-analysis of the deposited data

Results flagged for a closer look

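The ribosomal protein share of UMIs was 0.505 percentage points higher in KO than in control in small intestine LP, while each pair of colon LP, spleen and colon epithelium had the lower share in KO. The difference between small intestine LP and each of the other tissues was not tested, since small intestine LP had 1 library per genotype. The direction turned by the median cell, at 23.9% in KO and 24.4% in control, and over all deposited cells, at 21.5% in KO and 24.2% in control. The KO library also had the lowest CD3-positive share of the libraries, whose part in the result was not tested.

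The 16 pseudogene symbols left out of the family held 310199 UMIs in CD3-positive cells. They made up 0.498% to 1.39% of the members' UMIs in batch 2 and 1.24% to 3.73% in batch 1, and reads may be split between these copies and their parent genes.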

How the results depend on the processing

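The mean share of UMIs over 12 libraries stayed between 23.6% and 24.5% under every alternative run. For colon LP against spleen, the count of members called was 1 with all deposited cells, with cells thinned to 1500 UMIs and with DESeq2 size factors or TMM without the family, 6 with no filter on low counts, 7 with DESeq2 and 16 with the replicate block, and 1 to 4 with a library left out. Its median was 0.031 with library totals alone, -0.023 scaled to the ribosomal protein total, 0.091 in batch 2 alone and 0.098 to 0.38 with a library left out. With the replicate number as a block, no member was called in any KO comparison, so the block changed no other call; the blocked colon LP values stand above. With no filter on low counts 1 member was called in each of KO against control in colon LP, in spleen and in their difference, and over 12 libraries 1 was called (Rps27rt) when batch 2 alone was tested. Scaled to the ribosomal protein total the KO median in spleen was -0.019 and that of the difference 0.013. Under that scaling the members' median lies near 0 by construction, in these and the other comparisons. With a library left out, the KO medians ran from -0.37 to 0.18 in colon LP, -0.39 to -0.12 in spleen, -0.16 to 0.44 for their difference and -0.20 to -0.050 over 12 libraries. For batch 2 against batch 1 the count was 12 scaled to the ribosomal protein total, 31 with no filter, 36 with DESeq2 and 4 to 24 with a library left out; the median was -0.21 with library totals alone, 0.013 scaled to the ribosomal protein total and -0.44 to -0.26 with a library left out. Rps19 ran from -0.018 (without either spleen control library) to 0.20 with a library left out. For small intestine LP against colon LP the median was -0.10 with all deposited cells and -0.085 to 0.18 with a library left out, and the count 3 with DESeq2 and 0 to 3 with a library left out. For colon epithelium against colon LP the count was 1 with all cells, 3 with a CD3 limit of 1 UMI, 19 with thinned cells, 2 with library totals alone, 1 scaled to the ribosomal protein total, 3 with no filter, 18 with DESeq2, 8 with limma and 0 to 52 with a library left out; the median was -0.15 with library totals alone and -0.0022 scaled to the ribosomal protein total. KO against control without replicates had medians of -0.17, -0.0074 and 0.0092 in small intestine LP and -0.099, -0.061 and -0.081 in colon epithelium, with all cells, thinned cells and totals without the family. The cause was not tested in any of these. Of the values of single genes under alternatives, 759 kept direction and side of the threshold, 33 passed newly, 87 lost the threshold and 2 reversed. Batch, depth per cell and the sex marks of the libraries cannot be told apart, and 2 libraries per group limit what the KO tests can detect.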
